A study of Rattus norvegicus with 8 samples.

Results

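Patterning factors of the homeobox, T-box and forkhead families, with the bHLH factors Twist1 and Twist2, were followed in primary rat nucleus pulposus (NP) cells, which lie at the soft centre of each intervertebral disc, after knockdown of the deacetylase gene Sirt6. The members were taken by name, with earlier results of these data known. They are every gene of the authors' comparison table whose symbol is a numbered Hoxa, Hoxb, Hoxc, Hoxd, Tbx, Pax, sine oculis homeobox (Six2 and its paralogues), Msx, Meox, Foxc, Foxd, Foxf, Lhx, Pitx, Dlx, Irx, Prrx, Meis, Pbx or Twist gene. This gave 67 of the 13543 named genes, of which 25 were Hox genes and 42 belonged to the other families, and no Pitx gene was among them. Both groups were NP cells of adult Sprague Dawley rats that had been transduced with a lentivirus. Cells labelled SIRT6Ctrl/ShCtrl received a control ShRNA (Sirt6-Ctrl, libraries S1 to S4), and cells labelled SIRT6KD/ShSirt6 received a mixture of ShRNA clones against Sirt6 (Sirt6-KD, libraries S5 to S8). The cells are therefore cultured, virus-exposed cells of either arm, and the knockdown rests on the ShRNA mixture rather than on a deleted gene. The series design names 4 rats and a control for each knockdown, but no label ties a library to a rat, so the groups of 4 were compared without pairing.

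Hox genes lie in clusters a to d in the order of their paralogue numbers. As background, low-numbered genes are expressed from the hindbrain backwards and high-numbered genes towards the tail, and the set of Hox genes that a cell keeps on marks where along the axis its ancestors lay. Meis and Pbx proteins of the TALE class bind DNA together with Hox proteins. Disc cells have a double origin: NP cells descend from the notochord, marked by T, Noto, Shh and Foxa2, whereas the annulus fibrosus and the vertebrae come from the sclerotome of the somites, where Pax1, Pax9, Meox1 and Nkx3-2 act. Tbx6 directs presomitic mesoderm and Tbx18 the anterior part of each somite, and Prrx, Twist, Msx, Foxc and Foxf factors are widely used in mesenchyme.

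The libraries held 31994838 to 40124813 counts in Sirt6-Ctrl and 32382957 to 36600792 in Sirt6-KD, a difference within the spread of the libraries (p = 0.257, exact permutation, two-sided), and a level of 3 counts, taken as the floor of detection, corresponded to 0.0727 to 0.0928 CPM, the counts scaled to the effective library size. Sirt6 itself stood at 52.7 ± 3.78 CPM (SD, n = 4) in Sirt6-Ctrl and 20.6 ± 1.07 in Sirt6-KD, with no overlap. ERCC spike-ins, synthetic RNAs added to the samples, took 6.27% of the counts in S1 and 9.80% in S2 but 2.15% to 3.08% in the other 6 libraries, and the share differed between Sirt6-Ctrl and Sirt6-KD (p = 0.0286 by exact permutation, two-sided, the minimum for 4 against 4). S1 and S2 also held the most tested genes with 3 counts or fewer, 4.72% and 10.6% against at most 1.90% elsewhere. The part of the spike-in share in the results below was not tested, and results are therefore also given without S1 and S2. Those fits leave S3 and S4 as the only controls, and S3 was nearer in its counts to the Sirt6-KD libraries than to any other control. A change in those fits is therefore not a test of the spike-in share. All levels are CPM normalized by TMM, and all changes are log2 fold changes of Sirt6-KD over Sirt6-Ctrl, relative to the bulk of the genes. Scaling by the spike-ins instead moved the median of all genes from −0.016 to 0.94. Because total RNA of a culture was sequenced, fewer cells of a type and less RNA per cell cannot be told apart.

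The label of the cells was checked against marker genes. Of the notochord and NP markers, Krt8, a keratin of NP cells, stood at 6.56 ± 3.07 CPM in Sirt6-Ctrl and 2.63 ± 0.473 in Sirt6-KD. Cdh2, the N-cadherin gene, stood at 56.6 ± 29.6 and 81.7 ± 7.42 CPM, and the surface marker Cd24 at 37.9 ± 14.4 and 19.3 ± 6.55. The chondrogenic factors Sox9 and Sox6 had means of 7.98 and 4.31 CPM in Sirt6-Ctrl and 11.1 and 8.52 in Sirt6-KD, and Car3 of 16.0 and 2.47. Foxa2, the notochordal forkhead factor, had 0, 1, 46 and 0 counts in S1 to S4 and 37, 1, 64 and 39 in S5 to S8, so that 3 of the 4 Sirt6-Ctrl libraries held no more than 1 count. The names T, Tbxt, Noto, Shh, Krt18 and Krt19 had no row in the comparison table, nor had the chondrocyte markers Col2a1, Matn1 and Cnmd. No gene left out of that table had more than 80 counts over the 8 libraries. Genes counted under these names thus had at most 80, and a gene counted under another name would be missed. The sclerotome factor Pax1 was present in every library. Of the endothelial markers only Tek had a row, at no more than 0.592 CPM, and none of the 4 epithelial markers had one. Fibroblast and pericyte genes were present in both groups. The annulus and tendon fibroblast list summed to 14210 to 26848 CPM in Sirt6-Ctrl and 8549 to 18489 in Sirt6-KD. Most of this sum was 1 gene, Col1a1, at 13286 to 25213 CPM in Sirt6-Ctrl and 7961 to 17465 in Sirt6-KD. Col1a1 was not called (edgeR adjusted p = 0.150). The pericyte and smooth muscle list summed to 413 to 561 CPM in Sirt6-Ctrl and 429 to 542 in Sirt6-KD.

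Of the 67 members, 64 passed the filter on low counts and entered edgeR's quasi-likelihood test. Calls required both a Benjamini-Hochberg adjusted p under 0.05 and a change of more than 1.5-fold. In Sirt6-KD, 7 members were called lower (Hoxb5, Hoxb6, Hoxc10, Hoxd9, Prrx2, Six2 and Tbx6) and 2 were called higher (Six5 and Tbx3), while 55 were not called. These counts are 10.9% and 3.13% of the members tested, beside 10.7% called lower and 8.02% called higher among all 13250 genes tested, so in this fit the share called lower was close to that of the whole table. The groups did not overlap in 12 members that were lower in Sirt6-KD and 7 that were higher, or 18.8% and 10.9% of those tested, beside 15.6% and 14.8% of all genes. At an unadjusted p under 0.05 there were 15 lower and 11 higher members, beside 20.4% lower and 16.1% higher of all genes. The count called lower depended on the library set and the tool. It was 3 without S1 (4.55% of the members tested, beside 5.71% of all genes), 11 without S2 (16.9% beside 8.42%) and 4 without S8 (6.15% beside 7.25%). Without S5, S6 or S7 it was 2 (3.03%), beside 5.81%, 5.15% and 5.6% of all genes. The count was 8 without S3 (12.1% beside 14.1%) and 7 without S4 (10.4% beside 10.9%). The share of members thus lay above that of all genes without S2 and below it without any other single library. DESeq2 called 14 members lower (20.9%) and limma-voom 6 (9.38%), with 11.8% and 9.88% of all genes called lower by these tools. The count called higher was 0 without S1, S5, S6 or S7 (beside 3.28% to 4.06% of all genes), 1 without S8 (beside 5.42%), 6 without S3 (beside 12.5%), 9 with DESeq2 and 6 with limma-voom, which called 10.9% and 12% of all genes higher. Without S1 and S2 together, 6 members were called lower and 1 higher (9.09% and 1.52%), beside 5% and 5.71% of all genes.

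**Figure D1:**
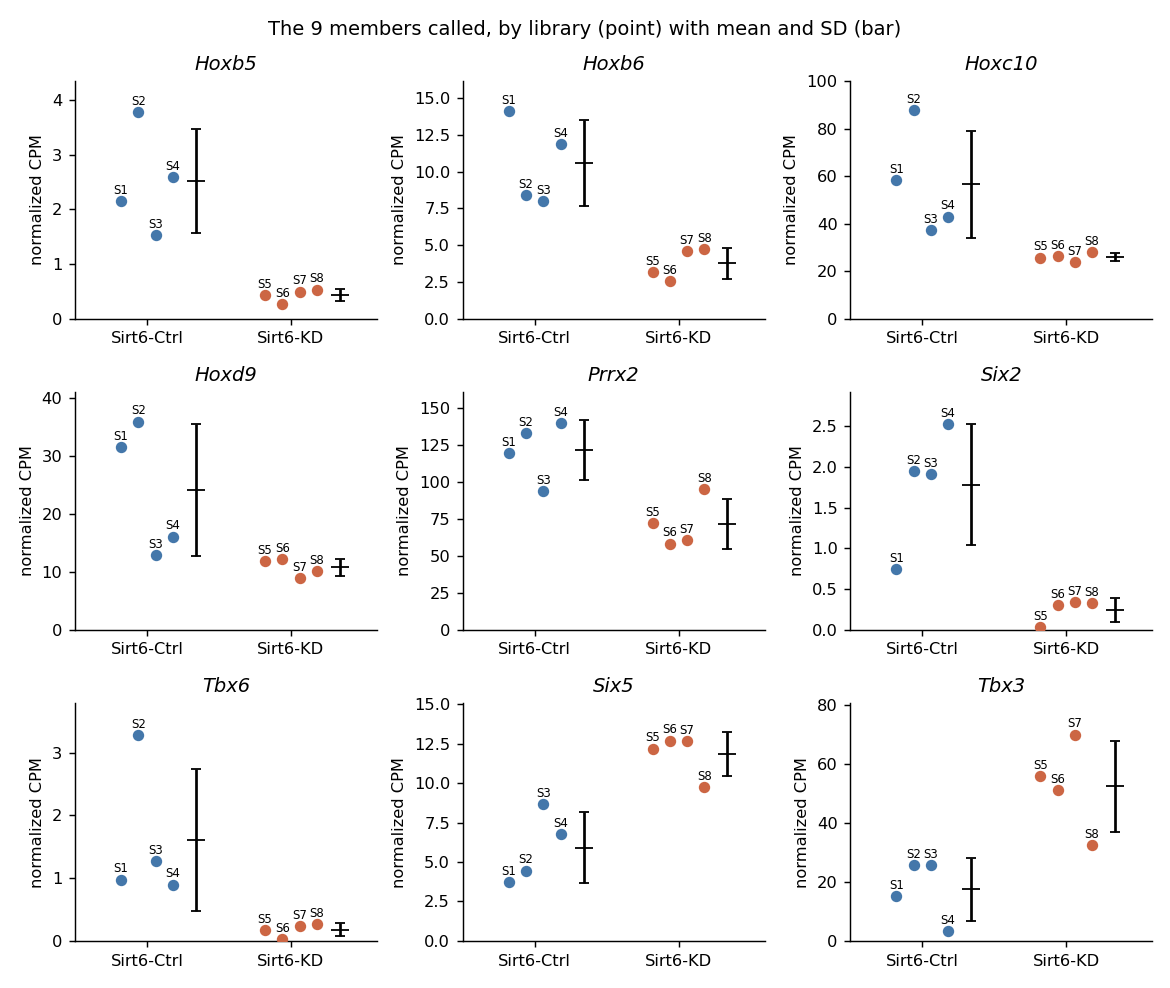
Normalized CPM (linear axis from 0) of the 9 called members in each library, with Sirt6-Ctrl in blue, Sirt6-KD in orange, and the mean and SD of each group (n = 4) as a bar. Groups overlap in Prrx2, where S8 (95.5 CPM) lies above S3 (93.9 CPM), and in no other of the 9.

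The called Hox genes belonged to paralogue groups 5, 6, 9 and 10 of clusters b, c and d. Hoxb5, a mid-axial gene of cluster b, had 75, 122, 52 and 107 counts in S1 to S4 and 15, 9, 19 and 18 in S5 to S8. Every Sirt6-KD library was below every Sirt6-Ctrl library, at 0.433 ± 0.117 CPM against 2.51 ± 0.946 (log2 fold change −2.53, SE 0.61, edgeR adjusted p = 0.0175). Its neighbour Hoxb6 had 491, 272, 272 and 489 counts in Sirt6-Ctrl and 109, 86, 177 and 159 in Sirt6-KD. Here too the groups were apart, at 10.6 ± 2.91 CPM against 3.76 ± 1.07 (log2 fold change −1.49, SE 0.33, edgeR adjusted p = 0.0129). Hoxc10, a gene of the lumbar and hindlimb level, had 58.4, 87.8, 37.3 and 43.0 CPM in S1 to S4 and 25.7, 26.3, 23.7 and 28.1 CPM in S5 to S8. The Sirt6-KD libraries lay close together and below all controls (log2 fold change −1.13, SE 0.25, edgeR adjusted p = 0.0127). Hoxd9 had 31.5, 35.9, 12.9 and 16.1 CPM in S1 to S4 and 11.9, 12.1, 8.97 and 10.2 CPM in S5 to S8. S1 and S2 were high and S3 and S4 were only just above the Sirt6-KD libraries (log2 fold change −1.16, SE 0.33, edgeR adjusted p = 0.0299).

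Hoxb6 and Hoxc10 were called whichever single library was left out, and also without S1 and S2 together, where Hoxb6 gave −1.39 (edgeR adjusted p = 0.0272) and Hoxc10 a smaller −0.62 (edgeR adjusted p = 0.0237). Hoxb5 gave edgeR adjusted p-values of 0.0570, 0.0644 and 0.0557 without S5, S6 and S7, and 0.0528 without S1 and S2, with log2 fold changes between −2.71 and −2.25 when single libraries were left out. The call of Hoxd9 was kept only without S3 or S4. Its edgeR adjusted p was 0.0574 to 0.0921 without S1, S2, S5, S6, S7 or S8, and without S1 and S2 together its log2 fold change was −0.42 (edgeR adjusted p = 0.203).

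Across the clusters, 19 of the 24 Hox genes tested had a negative log2 fold change by TMM, 4 of them called lower (16.7%) and 0 called higher, beside 50.9% negative, 10.7% called lower and 8.02% called higher among all genes. By limma-voom 16 of the 24 were negative, whereas under spike-in scaling 5 of the 24 were negative and 19 lay below the median of all genes. Beside the 0 called higher by edgeR, 0 had an unadjusted p under 0.05 in that direction, and DESeq2 and limma-voom each called 0 higher. The median over the 24 was −0.79, beside −0.016 over all genes tested. In cluster b, 2 of 9 genes were called lower and 7 were negative. In cluster c, 1 of 8 was called lower and all 8 were negative, with a median of −0.90. In cluster d, 1 of 6 was called lower and 3 were negative, with a median of −0.15. By position along the clusters, the 10 genes tested of paralogue groups 5 to 9 had 3 calls, 9 negative values and a median of −1.17. The 5 genes of groups 2 to 4 had 0 calls by edgeR and limma-voom and 1, Hoxb4, by DESeq2, with 1 at an unadjusted p under 0.05 in edgeR and a median of −0.13. The 9 genes of groups 10 to 13 had 1 call, 7 negative values and a median of −0.30. Differences between these stretches were not tested, and genes of a cluster are neighbours and not independent of each other. The counting gave no strand setting in the sources used here, so reads of antisense transcripts inside the clusters cannot be told apart from those of the Hox genes.

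**Figure D2:**
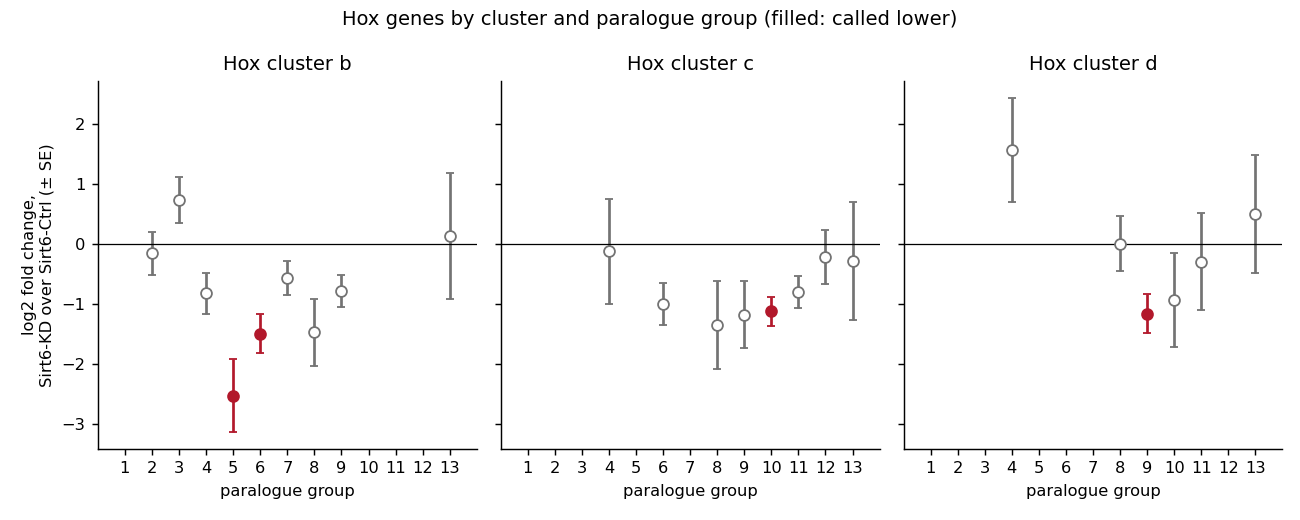
Log2 fold change (Sirt6-KD over Sirt6-Ctrl, TMM scale, ± SE) of the 23 tested Hox genes of clusters b, c and d, by paralogue group, with filled points for those called lower. Cluster c lies below 0 throughout and the lowest point is Hoxb5 at −2.53, whereas under spike-in scaling 5 of all 24 tested Hox genes are negative.

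The summed level of the 25 Hox genes was 269, 255, 204 and 267 CPM in S1 to S4 and 139, 150, 158 and 170 CPM in S5 to S8. All Sirt6-KD libraries were thus below all Sirt6-Ctrl libraries on the TMM scale, and the sum weights long and highly counted genes most. The share of the clusters in it differed among the controls. Cluster b gave 120, 59.8, 94.9 and 130 CPM in S1 to S4, and S2 was as low as the Sirt6-KD libraries, which held 59.5 to 78.4 CPM. Cluster c gave 98.8, 127, 70.4 and 108 CPM in S1 to S4 against 47.9 to 69.7 in S5 to S8. Cluster d gave 28.4 to 66.1 CPM in Sirt6-Ctrl and 21.6 to 41.4 in Sirt6-KD, so the groups overlapped.

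**Figure D3:**
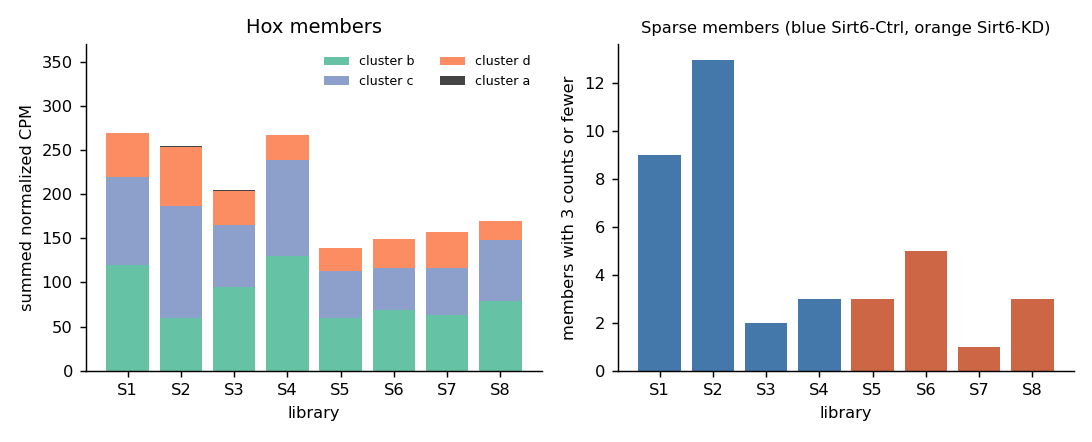
Left, summed normalized CPM of the Hox members of each cluster in each library (stacked bars from 0). Right, the number of the 67 members with 3 counts or fewer in each library, which reaches 13 in S2 and 9 in S1 but at most 5 in any other.

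Of the Hox genes that edgeR did not call, Hoxb9, of the thoracic level, had 53.3, 22.2, 43.9 and 52.6 CPM in S1 to S4 and 20.5 to 30.2 CPM in S5 to S8. S2 alone reached into the Sirt6-KD range (log2 fold change −0.78, SE 0.26, edgeR adjusted p = 0.0552), and without S2 the value was −0.99 (edgeR adjusted p = 0.00641). Hoxb8, its neighbour, also had S2 as the low control, with 2.79, 1.61, 3.80 and 5.67 CPM in S1 to S4 and 0.836 to 1.92 in S5 to S8 (log2 fold change −1.47, edgeR adjusted p = 0.0822, and 0.0295 without S2). Hoxc11 and Hoxc6, chosen after their values were seen because their groups did not overlap, gave −0.80 (edgeR adjusted p = 0.0549) and −1.0 (edgeR adjusted p = 0.0662). DESeq2 called Hoxb9, Hoxb8, Hoxc11 and Hoxc6 lower, with adjusted p-values of 0.0295, 0.0213, 0.0173 and 0.00634, and limma-voom called none of these 4, at 0.0733, 0.101, 0.0627 and 0.0655. Hoxc12 did not separate the groups, with 13.6, 5.85, 14.3 and 29.4 CPM in S1 to S4 and 8.06 to 22.3 in S5 to S8 (log2 fold change −0.22, edgeR adjusted p = 0.768), and without S4 its log2 fold change was above 0, at 0.27 (edgeR adjusted p = 0.671). Hoxa11, the only gene of cluster a in the table, had 0, 56, 10 and 39 counts in Sirt6-Ctrl and 15, 3, 4 and 2 in Sirt6-KD. Its controls ran from 0 to more than any Sirt6-KD library, and its log2 fold change of −2.09 had an SE of 1.31 (edgeR adjusted p = 0.279).

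A few Hox genes lay on the higher side in Sirt6-KD. Hoxd4, an anterior gene, had 0.259, 0.216, 0.530 and 1.07 CPM in S1 to S4 and 2.60, 2.51, 0.469 and 0.621 in S5 to S8. Only S5 and S6 stood above the controls (log2 fold change 1.57, SE 0.87, edgeR adjusted p = 0.218). Hoxb3, chosen after its values were seen as the only Hox gene with all Sirt6-KD libraries above all Sirt6-Ctrl libraries, had 6.98, 2.10, 7.80 and 6.62 CPM in S1 to S4 and 8.54 to 11.9 CPM in S5 to S8 (log2 fold change 0.74, edgeR adjusted p = 0.192). Hoxc5 did not pass the filter: it had 135 counts in S2 and 0, 1 and 7 in the other controls, against 1, 4, 15 and 28 in Sirt6-KD. Its Sirt6-Ctrl total of 143 thus came almost wholly from S2.

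Several posterior Hox genes varied widely among the controls. The median SD of log2(CPM + 0.5) over the 9 genes of paralogue groups 10 to 13 was 1.48 in Sirt6-Ctrl and 0.59 in Sirt6-KD, beside 0.44 and 0.20 over all genes tested and 0.66 and 0.34 over all 67 members. Of these posterior genes, Hoxc10 and Hoxc11 varied less in Sirt6-Ctrl, with SDs of 0.54 and 0.42. Wide spread was not particular to them, since Six4, Hoxc4 and Tbx3 had SDs of 1.64, 1.33 and 1.30 in Sirt6-Ctrl. Hoxb13, Hoxd13 and Hoxd10 are shown as examples chosen after their values were seen. Hoxb13 had 66, 0, 143 and 159 counts in S1 to S4 and 24, 139, 117 and 104 in S5 to S8. Hoxd13, the tail-most gene of cluster d, had 3, 121, 234 and 46 counts in S1 to S4 and 47, 125, 371 and 67 in S5 to S8. Hoxd10 had 401, 22, 275 and 229 counts in S1 to S4 and 44, 150, 249 and 42 in S5 to S8. The control library at or near 0 was S2 for Hoxb13 and S1 for Hoxd13, so no single library was low for all of the posterior genes, and none of the 3 separated the groups. S2 was the lowest Sirt6-Ctrl library for 32 of the 67 members (47.8%), compared with 33.3% of all genes tested.

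**Figure D4:**
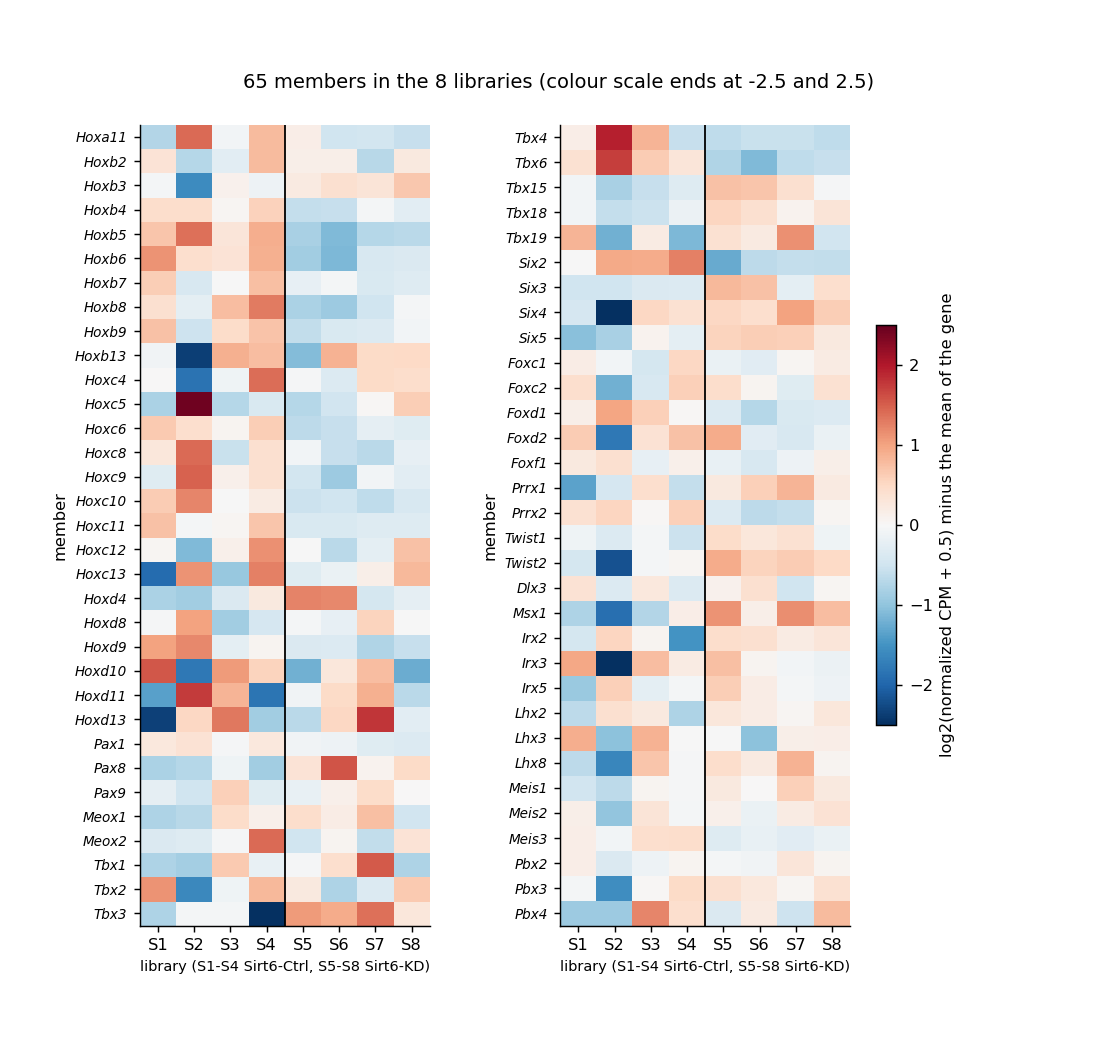
Log2(normalized CPM + 0.5) of 65 members, each minus its mean over the 8 libraries (colour, cut at −2.5 and 2.5), with Sirt6-Ctrl left and Sirt6-KD right of each line. Dark blue cells in S2 include Hoxb13 with 0 counts and Irx3 with 3, and Hoxb5 and Hoxb6 of cluster b are red in S1 to S4 and blue in S5 to S8.

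Among the T-box genes, 1 of 7 tested was called lower and 1 higher (14.3% each), beside 10.7% and 8.02% of all genes. Tbx6, the presomitic factor, had 34, 106, 43 and 37 counts in S1 to S4 and 6, 1, 9 and 9 in S5 to S8. All Sirt6-KD libraries were below all controls, and S2 stood far above the other controls (log2 fold change −3.16, SE 0.89, edgeR adjusted p = 0.0307). The call was kept without S3 or S4, its edgeR adjusted p was 0.0549 to 0.0877 without S1, S2, S5, S6, S7 or S8, and it was 0.118 without S1 and S2 together. Tbx3, a limb and mesoderm repressor, had 15.3, 25.7, 25.7 and 3.39 CPM in S1 to S4 and 56.0, 51.2, 69.9 and 32.5 in S5 to S8. The groups were apart, with S4 the low control (log2 fold change 1.58, SE 0.50, edgeR adjusted p = 0.0461). Its edgeR adjusted p was 0.0526 to 0.120 without S1, S5, S6, S7 or S8, and 0.0956 without S1 and S2, where the value was 1.86.

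Tbx18, of the anterior somite, and Tbx15, a mesenchymal factor of limb and trunk, are given after their values were seen because all Sirt6-KD libraries were above all controls. Tbx18 had 7.30 to 10.7 CPM in Sirt6-Ctrl and 12.1 to 16.7 in Sirt6-KD (log2 fold change 0.70, SE 0.23, edgeR adjusted p = 0.0518, and 0.0454 by limma-voom). Tbx15 had 1.52 to 2.87 CPM in Sirt6-Ctrl and 2.96 to 5.38 in Sirt6-KD (log2 fold change 1.04, SE 0.42, edgeR adjusted p = 0.0976), and DESeq2 called it higher (adjusted p = 0.0203). Tbx4, a hindlimb and lung factor, did not pass the filter, with 13, 81, 31 and 1 counts in S1 to S4 and 0, 1, 1 and 0 in S5 to S8. Its Sirt6-Ctrl total was 62.0 times that of Sirt6-KD per normalized library (95% interval 16.8 to 518, exact binomial and for counting error only), and S4 lay within the Sirt6-KD range. Tbx4 was called lower by DESeq2 (adjusted p = 0.00204), by edgeR with no filter (adjusted p = 0.0359) and by edgeR without S4 (adjusted p = 0.0157), where it passed the filter. The other T-box members tested, Tbx1, Tbx2 and Tbx19, overlapped between the groups and had SEs of 0.94 to 1.29.

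Of the 4 sine oculis homeobox genes tested, 1 was called lower and 1 higher (25% each), beside 10.7% and 8.02% of all genes. These factors act with Eya proteins in mesoderm and muscle. Six2 had 26, 63, 65 and 104 counts in S1 to S4 and 1, 10, 13 and 11 in S5 to S8. Every Sirt6-KD library was below every control (log2 fold change −2.83, SE 0.85, edgeR adjusted p = 0.0386). Of the 8 fits with 1 library left out, the call was kept only without S2, with edgeR adjusted p-values of 0.0522 to 0.0989 without S1, S3, S4, S5, S6, S7 or S8, and it was also kept without S1 and S2 together (0.0452). Six5 had 3.71, 4.45, 8.65 and 6.79 CPM in S1 to S4 and 12.2, 12.7, 12.6 and 9.77 in S5 to S8. The groups were apart, with S1 and S2 lowest (log2 fold change 1.0, SE 0.31, edgeR adjusted p = 0.0427). Six5 kept its call only without S3, its edgeR adjusted p was 0.0539 to 0.116 without S1, S2, S4, S5, S6, S7 or S8, and its log2 fold change was 0.62 without S1 and S2 (edgeR adjusted p = 0.0919). Six3, a forebrain and eye factor that did not pass the filter, had 1, 1, 3 and 4 counts in S1 to S4 and 28, 25, 5 and 17 in S5 to S8. Its total was 8.46 times higher in Sirt6-KD (95% interval 4.23 to 19.2, exact binomial, counting error only), with the groups apart by 1 count, and DESeq2 called it higher (adjusted p = 0.0180) whereas edgeR with no filter did not (adjusted p = 0.128). Six4 overlapped between the groups, at a log2 fold change of 0.90.

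RefSeq promoter windows on the GRCr8 build, cut to the 250 bases before the annotated start, were available for 39 of the 67 members and for 5 of the 9 called members: Hoxd9, Prrx2, Six2, Tbx6 and Six5. The windows of 3 genes called lower and of the gene called higher are printed 5′ to 3′, with capitals marking matches on either strand. The patterns sought were the GC box GGGCGG, the CCAAT box, the TATA box TATAAA, the Hox-Pbx pattern TGATNNAT and the T-box half-site TCACACCT.
Hoxd9, chr3:80007756-80008005, + strand: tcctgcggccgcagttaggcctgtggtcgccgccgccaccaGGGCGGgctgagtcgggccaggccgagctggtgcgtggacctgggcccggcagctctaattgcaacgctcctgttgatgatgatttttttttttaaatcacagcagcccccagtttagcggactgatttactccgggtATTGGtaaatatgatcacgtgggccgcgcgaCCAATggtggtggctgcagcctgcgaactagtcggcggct
Six2, chr6:14727808-14728057, + strand: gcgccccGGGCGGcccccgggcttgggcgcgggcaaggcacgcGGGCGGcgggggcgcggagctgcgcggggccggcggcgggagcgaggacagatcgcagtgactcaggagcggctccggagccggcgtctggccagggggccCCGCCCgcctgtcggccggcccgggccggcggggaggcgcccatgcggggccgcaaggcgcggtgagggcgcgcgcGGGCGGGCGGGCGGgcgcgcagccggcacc
Tbx6, chr1:190818979-190819228, + strand: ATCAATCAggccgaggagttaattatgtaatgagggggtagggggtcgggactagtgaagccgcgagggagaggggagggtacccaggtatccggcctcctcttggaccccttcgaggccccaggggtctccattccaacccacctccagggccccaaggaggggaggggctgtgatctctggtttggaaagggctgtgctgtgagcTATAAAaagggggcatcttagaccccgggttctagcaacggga
Six5, chr1:87869156-87869405, + strand: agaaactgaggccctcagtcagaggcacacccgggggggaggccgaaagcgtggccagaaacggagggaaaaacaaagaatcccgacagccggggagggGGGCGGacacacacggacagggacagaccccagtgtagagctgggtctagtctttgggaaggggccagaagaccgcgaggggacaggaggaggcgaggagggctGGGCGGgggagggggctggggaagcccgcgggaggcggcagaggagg
The Six2 window is 86% G and C with 45 CpG dinucleotides and 6 GC boxes, some of which overlap one another near its 3′ end. The Hoxd9 window is 60% G and C with 20 CpG dinucleotides, 1 GC box and a CCAAT box on each strand. The Tbx6 window is 59.6% G and C, with 8 CpG dinucleotides, 1 TATA box and 1 Hox-Pbx match, and no GC box. The Six5 window is 67.6% G and C, so of the windows printed only that of Six2 was far apart in base composition. Six5, which was higher in Sirt6-KD, has 2 GC boxes, and so does Prrx2, which was lower, and the GC box thus stood before genes of either direction. The GC box was found in 26 of the 42 member windows (61.9%) and in 30.5% of all 33469 promoters, and the CCAAT box in 54.8% and 34%. The median G and C content was 60.8% in the member windows and 51.2% over all promoters. TATAAA was found in 9.52% of the member windows against 12.9% of all promoters, TGATNNAT in 4.76% against 7.96%, and TCACACCT in 0 of the 42 member windows against 0.959%. These matches describe letters and not bound sites.

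Of the paired-type homeobox genes Prrx1 and Prrx2, which mark limb and other mesenchyme and overlap in function, Prrx2 was called lower by edgeR, DESeq2 and limma-voom, and Prrx1 was called higher by DESeq2 and limma-voom (adjusted p = 0.0337 and 0.0348) but not by edgeR. Prrx2 had 120, 133, 93.9 and 140 CPM in S1 to S4 and 72.4, 58.4, 61.0 and 95.5 in S5 to S8. S8 reached above S3, and the other Sirt6-KD libraries were below all controls (log2 fold change −0.76, SE 0.19, edgeR adjusted p = 0.0187). The edgeR adjusted p of Prrx2 was 0.0513, 0.0563, 0.0663 and 0.0645 without S1, S5, S6 and S7, and 0.0721 without S1 and S2, where the value was −0.69. Prrx1 had 34.3, 65.3, 117 and 57.4 CPM in S1 to S4 and 104, 131, 158 and 102 in S5 to S8. Only S3 of the controls reached the Sirt6-KD range (log2 fold change 0.86, SE 0.32, edgeR adjusted p = 0.0760), and without S3 the value was 1.24 (edgeR adjusted p = 0.00508). The difference between the changes of Prrx1 and Prrx2 was not tested. Twist1, a bHLH factor of sclerotome and mesenchyme, had 30.5 to 43.2 CPM in Sirt6-Ctrl and 41.4 to 61.3 in Sirt6-KD (log2 fold change 0.52, SE 0.17, edgeR adjusted p = 0.0527, a fold below 1.5). Twist2, given after its values were seen, had 2.35 to 12.7 CPM in Sirt6-Ctrl and 17.7 to 23.8 in Sirt6-KD, with no overlap (log2 fold change 1.14, SE 0.42, edgeR adjusted p = 0.0768, and 0.0197 without S2). DESeq2 and limma-voom called Twist2 higher, with adjusted p-values of 0.0297 and 0.0344.

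Msx1, a muscle segment homeobox repressor, had 1.24, 0.309, 1.30 and 2.86 CPM in S1 to S4 and 6.02, 2.81, 6.15 and 4.62 in S5 to S8. S4 and S6 were the only libraries that crossed between the groups (log2 fold change 1.78, SE 0.63, edgeR adjusted p = 0.0660, and 0.0297 without S4). DESeq2 and limma-voom called Msx1 higher, with adjusted p-values of 0.0136 and 0.0430. Irx2, of the Iroquois genes, had 12.4, 25, 18 and 5.77 CPM in S1 to S4 and 20 to 23.5 in S5 to S8. Its controls lay on both sides of a narrow Sirt6-KD range (log2 fold change 0.52, SE 0.36, edgeR adjusted p = 0.334). Of the 3 Irx and 3 Lhx genes, 0 were called by edgeR, DESeq2 or limma-voom, and 0 had an unadjusted p under 0.05 in edgeR. Dlx3 had 2.23 to 3.94 CPM in Sirt6-Ctrl and 1.96 to 4.06 in Sirt6-KD.

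Of the 3 paired box genes tested, 0 were called by edgeR and limma-voom, 2 had an unadjusted p under 0.05 and DESeq2 called Pax8 higher. At that unadjusted p, 20.4% of all genes were lower and 16.1% higher. Pax1, the sclerotome factor, had 74.2, 79.0, 60.2 and 73.7 CPM in S1 to S4 and 58.2, 56.8, 50.1 and 48.3 in S5 to S8. The groups did not overlap, yet the change was under the fold threshold (log2 fold change −0.43, SE 0.14, edgeR adjusted p = 0.0459), and it was 0.58 under spike-in scaling, below the median shift of 0.94. Pax9, its paralogue, had 7.48 to 16.5 CPM in Sirt6-Ctrl and 9.43 to 14.9 in Sirt6-KD, with a log2 fold change of 0.17 (edgeR adjusted p = 0.720). Pax8, a kidney and thyroid factor, had 1, 2, 12 and 0 counts in S1 to S4 and 23, 74, 18 and 26 in S5 to S8. All Sirt6-KD libraries were above all controls at low counts, with an SE of 1.22 on a log2 fold change of 3.19 (edgeR adjusted p = 0.0863). The mesodermal homeobox genes Meox1 and Meox2 overlapped between the groups, at log2 fold changes of 0.93 and −0.55.

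Of the 5 forkhead members tested, 0 were called by edgeR and limma-voom. In edgeR 1, Foxd1, had an unadjusted p under 0.05, beside 20.4% lower and 16.1% higher of all genes. DESeq2 called Foxd1 lower. Foxf1, a factor of splanchnic mesoderm that is also expressed in NP, had 54.2, 60.3, 39.4 and 49.9 CPM in S1 to S4 and 34.3 to 50.5 in S5 to S8. The groups overlapped (log2 fold change −0.29, SE 0.17, edgeR adjusted p = 0.258). Foxc1, a somite and vascular factor, had 20.8 to 40.8 CPM in Sirt6-Ctrl and 23.2 to 32.8 in Sirt6-KD, a range held inside that of the controls (log2 fold change −0.13, edgeR adjusted p = 0.712). Foxd1, of renal and facial mesenchyme, had 14, 36, 25 and 14 counts in S1 to S4 and 5, 0, 5 and 5 in S5 to S8. All Sirt6-KD libraries were below all controls, but at few counts (log2 fold change −2.57, SE 1.06, edgeR adjusted p = 0.107).

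**Figure D5:**
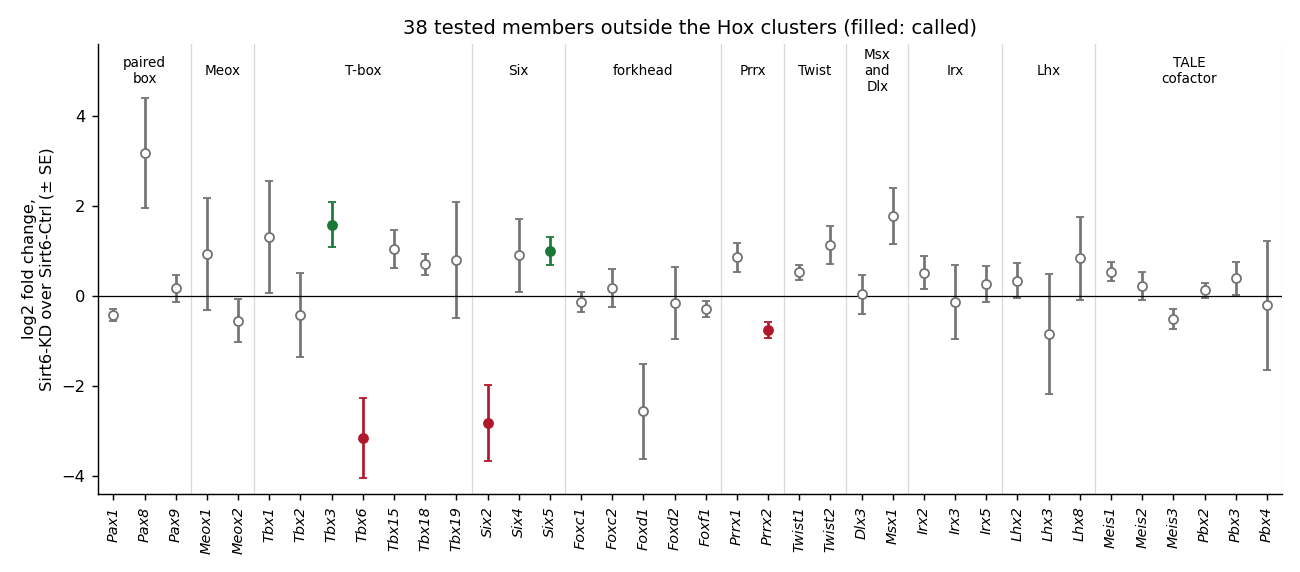
Log2 fold change (Sirt6-KD over Sirt6-Ctrl, TMM scale, ± SE) of 38 tested members outside the Hox clusters, by family, with filled points for those called. Tbx6 at −3.16, Six2 at −2.83 and Prrx2 at −0.76 are the calls below 0, and Tbx3 at 1.58 and Six5 at 1.0 those above.

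The TALE cofactors of the Hox proteins had 0 calls among 7 genes by edgeR, DESeq2 and limma-voom. In edgeR 3 had an unadjusted p under 0.05, 1 lower and 2 higher, beside 20.4% lower and 16.1% higher of all genes. Meis1 had 21.9, 19.3, 32.0 and 29.9 CPM in S1 to S4 and 36.1, 30.8, 46.1 and 36.4 in S5 to S8. S6 alone reached down into the controls (log2 fold change 0.54, SE 0.21, edgeR adjusted p = 0.0861). Pbx2 had 37.7 ± 5.88 CPM in Sirt6-Ctrl and 41.0 ± 5.35 in Sirt6-KD (log2 fold change 0.12, SE 0.16, edgeR adjusted p = 0.642). Pbx3 had 13, 4.21, 13.7 and 18.9 CPM in S1 to S4 and 13.9 to 17.8 in S5 to S8, with S2 the low library (log2 fold change 0.39, edgeR adjusted p = 0.485). Meis3, given after its values were seen because its groups did not overlap, had 10.5 to 15 CPM in Sirt6-Ctrl and 8.71 to 9.77 in Sirt6-KD (log2 fold change −0.51, SE 0.22, edgeR adjusted p = 0.116). Among 6 other cofactors listed, 5 were tested and 1 was called higher (20%, beside 8.02% of all genes). It was the TALE gene Pknox1, at 24.2 ± 2.66 CPM against 15.8 ± 3.28 (log2 fold change 0.61, edgeR adjusted p = 0.0478). That change, 1.53-fold, was close to both thresholds.

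The genes that set and keep Hox expression were read from a list of Polycomb, trithorax, retinoid and Cdx genes. Of 51 listed, 43 were tested, 7 were called higher and 1 lower, with a median of 0.13 beside −0.016 over all genes, or 16.3% higher and 2.33% lower beside 8.02% and 10.7% of all genes. Of the Polycomb repressive complex that methylates H3K27, Ezh2, a methyltransferase, had 19.1 to 21.1 CPM in Sirt6-Ctrl and 31.6 to 36.5 in Sirt6-KD (log2 fold change 0.72, edgeR adjusted p = 0.00887). Suz12, its scaffold, was also called higher (log2 fold change 0.88, edgeR adjusted p = 0.0135), as was the accessory subunit Aebp2 (log2 fold change 0.63, edgeR adjusted p = 0.0348). Eed, which reads the H3K27 methyl mark, was the gene called lower, with 38.7 to 54.1 CPM in Sirt6-Ctrl and 26.5 to 32.3 in Sirt6-KD (log2 fold change −0.62, edgeR adjusted p = 0.0203). Ezh1, the paralogue of Ezh2, was also lower with no overlap, but under the fold threshold (log2 fold change −0.56, edgeR adjusted p = 0.0154). Rbbp4 and Rbbp7 were not called (log2 fold changes −0.18 and −0.008). Core subunits of this complex thus went in both directions. Kmt2a, the trithorax methyltransferase that maintains Hox expression, had 11.6, 9.65, 35.8 and 22.8 CPM in S1 to S4 and 53.2, 61.2, 63.6 and 60.7 in S5 to S8. All Sirt6-KD libraries were above all controls, with S1 and S2 lowest (log2 fold change 1.58, edgeR adjusted p = 0.0144). Rxra, the partner of retinoic acid receptors, was called higher (log2 fold change 1.17, edgeR adjusted p = 0.0106), as were Pcgf3 and Phc1 (log2 fold changes 0.82 and 0.63).

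Genes of somite and notochord identity were read from lists of their own. Of 23 somite and sclerotome genes, 14 were tested, with a median of 0.020 beside −0.016 over all genes. By edgeR 0 were called higher (3 at an unadjusted p under 0.05), and DESeq2 and limma-voom each called 2 higher. By edgeR 3 were called lower (21.4%, beside 10.7% of all genes), with 4 lower at an unadjusted p under 0.05. DESeq2 called 3 lower and limma-voom 2. The genes called lower by edgeR were Tbx6, the sclerotome homeobox gene Nkx3-2 and the tendon factor Scx. Nkx3-2 had 12.8, 12.2, 17.2 and 16.4 CPM in S1 to S4 and 5.18, 3.46, 6.07 and 7.19 in S5 to S8, well apart (log2 fold change −1.42, SE 0.28, edgeR adjusted p = 0.00897). Scx had 30.2 to 114 CPM in Sirt6-Ctrl and 18.1 to 42.7 in Sirt6-KD, with S8 inside the range of the controls (log2 fold change −1.20, edgeR adjusted p = 0.0490). Of the notochord and NP genes with a row, 9 were tested, with a median of 0.53 beside −0.016 over all genes. By edgeR, DESeq2 or limma-voom 0 were called higher (1 at an unadjusted p under 0.05 in edgeR). By edgeR 2 were called lower (22.2%, beside 10.7% of all genes), with 3 lower at an unadjusted p under 0.05. DESeq2 called 3 lower and limma-voom 1. The edgeR calls were Krt8 (log2 fold change −1.32, edgeR adjusted p = 0.0441) and Car3, carbonic anhydrase of NP cells (log2 fold change −2.70, edgeR adjusted p = 0.0127). Among the markers of other cell types, chondrocyte Col9a1 and osteoblast Runx2 were called higher, and Comp, Alpl, Scx, Postn and S100b lower. Col9a1 had 2, 1, 0 and 1 counts in S1 to S4, under the floor, and 28, 13, 13 and 31 in S5 to S8. Chondrocyte Acan, Matn3 and Hapln1 were not called (log2 fold changes −0.62, −1.33 and −0.69). Of 5 chondrocyte and of 3 osteoblast genes tested, 1 was higher and 1 lower. Of 7 fibroblast genes 2 were lower, and of 4 neural and glial genes 1, beside 8.02% higher and 10.7% lower of all genes. The summed level of the annulus and tendon fibroblast list was 14210 to 26848 CPM in Sirt6-Ctrl and 8549 to 18489 in Sirt6-KD, mostly from Col1a1. Col1a1, Mkx, Col1a2, Col5a1 and Lum of that list were not called. The sum of the neural and glial list, mostly from S100b, which is also an NP gene, was 144 to 251 and 72.4 to 123 CPM. The part of these lists in the changes of the patterning factors was not tested. Of the 3 leukocyte, 5 pericyte and smooth muscle and 1 skeletal muscle genes tested, 0 were called by edgeR, DESeq2 or limma-voom, and 0 had an unadjusted p under 0.05.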

How the data were processed

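For each library the authors deposited unnormalized read counts of Ensembl genes and ERCC spike-ins (32975 rows). Per the submitters' processing notes, reads were handled with Trimmomatic 0.36, STAR 2.5.2b, featureCounts of Subread 1.5.2 and DESeq2 on Rnor_6.0, and the paper's text names no test for the RNA-seq comparison. The authors also deposited a comparison table of 13612 rows, those whose raw counts sum to at least 81. It holds gene names, the authors' own fold changes and p-values, which were not used, and a normalized signal per library, obtained by the authors as counts over 1 size factor per library and used here only in checking the columns. Of its rows, 69 had no gene name, and all of these were spike-ins.

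Values were computed from the raw counts. Spike-in rows (92, of which 63 were tested) were kept in the fit. Rows were filtered with the default filterByExpr of edgeR 4.0.16 (R 4.3.3), which left 13313, normalized by TMM and tested with the quasi-likelihood test (glmQLFit, glmQLFTest), two-sided and unpaired, with Benjamini-Hochberg adjustment over all rows. Calls needed an adjusted p under 0.05 together with a change of more than 1.5-fold, as in the study's legends. Levels are CPM on the TMM scale with the SD over 4 libraries. They are not per length, so only values of the same gene are compared. Intervals and the floor of 3 counts cover counting error only, since the reads carry no molecular identifiers. No pair of libraries agreed within sampling noise. The chi-square per degree of freedom over the tested genes was 112 to 125 between S3 and the Sirt6-KD libraries. Between S3 and the controls S4, S1 and S2 it was 149, 169 and 273, so S3 lay nearer to Sirt6-KD than to its own group.

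The members and lists were chosen with earlier results of these data known. Named with values are all called members, all below the filter and, of those not called, the 12 with the highest mean count and the 6 with the largest change, unless stated otherwise. Counts over members include 2 whose own values are not reported here. Promoter sequences are from RefSeq (GRCr8), matched by symbol, a build other than that of the counts. Alternatives were other normalizations (RLE, upper quartile, spike-ins), filters (none, or at least 1 CPM in 4 libraries), removal of spike-in rows, DESeq2 1.42.0, limma-voom (limma 3.58.1), other call rules, each library left out and S1 and S2 left out together.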

Additional observations from a re-analysis of the deposited data

Results flagged for a closer look

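A library was marked where it stood apart from the other 3 of its group by Dixon's ratio of its gap to the whole range, among 60 groups of 4 libraries of the named members and of members below the filter. There were 5 such cases, and chance alone marks about 1 group in 20. Hoxc5 in Sirt6-Ctrl had S2 as the highest library (ratio 0.959), at 4.18 CPM against 0 to 0.170 in the others. Tbx6 in Sirt6-Ctrl also had S2 as the highest (ratio 0.845), at 3.28 CPM against 0.897 to 1.27. Hoxa11 in Sirt6-KD had S5 as the highest (ratio 0.88), at 0.434 CPM against 0.0592 to 0.104. Six2 in Sirt6-KD had S5 as the lowest (ratio 0.87), with 1 count. Foxd1 in Sirt6-KD had S6 as the lowest (ratio 0.881), at 0 counts. Without S2 the log2 fold change of Tbx6 was −2.53, and without S5 that of Six2 was −2.46.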

How the results depend on the processing

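RLE and upper quartile normalization, the stricter filter and removal of the spike-in rows kept the 4 Hox calls and gave 3 members called higher. They kept all 7 members called lower except that the stricter filter left Six2 and Tbx6 out of the test. Among all genes these settings called 9.71% to 12.2% lower and 8.24% to 8.84% higher. With no filter 6 members were called lower, 8.96% of those tested beside 6.4% of all genes. Six2 (edgeR adjusted p = 0.0645) and Tbx6 (0.0516) were lost and Tbx4 was added. The number of members called lower was 0 with spike-in scaling and with glmTreat against a 1.5-fold change and 14 with DESeq2, and leaving out 1 library gave 2 to 11. The number called higher was 0 with spike-in scaling and glmTreat, 1 with no filter and without S1 and S2, 6 with limma-voom and 9 with DESeq2. Leaving out 1 library gave 0 to 6. With no filter 5.75% of all genes were called higher. The number of Hox genes called lower was 0 with spike-in scaling and glmTreat and 9 with DESeq2, and leaving out 1 library gave 2 to 8. When 1 library was left out, 5.15% to 14.1% of all genes were called lower and 3.28% to 12.5% higher. Under spike-in scaling 16 members had an unadjusted p under 0.05, and of all genes 0.151% were called higher and 0.0302% lower, against 0.694% and 1.4% with glmTreat.

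Spike-in scaling moved Sirt6 itself to −0.36 (edgeR adjusted p = 0.567), left 5 Hox genes negative, and turned the log2 fold changes of Hoxb9 (0.063), Hoxc10 (0.084), Hoxc12 (0.49), Hoxd9 (0.11), Prrx2 (0.24), Foxc1 (0.81), Foxf1 (0.77) and Pax1 (0.58) positive, all below the shifted median of 0.94. Leaving out 1 library gave −0.53 to 0.27 for Hoxc12 and −0.27 to 0.050 for Foxc1. The causes were not tested. No paired analysis was run because neither the labels nor the count columns carry a rat number shared between the groups. Differences between rats that recur in both groups were therefore not taken into account. Members with 3 counts or fewer, 13 of them in S2, are at the limit of the depth.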
